A study of Mus musculus with 36 samples.

Results

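The regions described here are the H3K9ac start-site peaks whose level was lower in CSE knockout than in wild-type aortic smooth muscle cells. They number 1826 of the 8115 H3K9ac peaks in the authors' deposited table, and lie at 1620 genes. Members were chosen by the authors' annotation within 1 kb of a transcription start site and by the measured values themselves, the deposited KO value being below the deposited WT value. Every difference between the genotypes is therefore given below as a description and none was tested.

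The cells were primary aortic smooth muscle cells, grown from CSE global knockout mice (KO) or from C57BL/6N wild-type mice (WT). CSE, cystathionine gamma-lyase, is an enzyme that makes hydrogen sulfide from sulfur amino acids. All cultures, WT included, had received angiotensin II at 1 µM for 24 hours, so no untreated cells stand beside them. ChIP-seq, which sequences the DNA pulled down with an antibody to a histone mark, covered 3 marks, H3K9ac, H3K9me3 and H3K4me3, with 3 KO and 3 WT libraries per mark and the matching input libraries, which makes 36 samples. The knockout was present throughout the body of the mice from which the cells came. The labels give no age for the animals and do not say whether libraries of 1 genotype came from separate animals or cultures, so the authors' p-values measure only the spread between these libraries, which may be technical.

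H3K9ac is acetylation of lysine 9 on histone H3. Acetyltransferases write it, deacetylases remove it, and it marks the nucleosomes next to start sites of genes that are being transcribed. H3K4me3 sits at the same active start sites, whereas H3K9me3 is the mark of constitutive heterochromatin. In arterial smooth muscle, active start sites include those of contractile, cytoskeletal and matrix genes, and angiotensin II is a stimulus for contraction, growth and matrix production. In ChIP of a cell population, less of a mark in every cell and fewer cells that carry it cannot be told apart.

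The promoters of 8 member genes are printed here to show the sequences under the peaks on which the results turn. Each sequence is the RefSeq promoter window of the gene on assembly GRCm38.p6, running 5′ to 3′ along the gene's strand, with 250 bases before the start site and 50 after it. Capitals mark matches, on either strand, to any of 10 short motifs. These are named with the sequence results, all but the CArG box with their letters. The first 4 windows belong to the members of largest fold difference that have a window under the peak, among those with an FDR under 0.05 and a mean log2 signal of at least 6. Pcsk6, a proprotein convertase, has the window chr7:65861886-65862185 on the plus strand. Npr3, the clearance receptor for natriuretic peptides, has chr15:11907322-11907621 on the minus strand. Hs3st3a1, a heparan sulfate sulfotransferase, has chr11:64435082-64435381 on the plus strand. Dync1i1, a dynein intermediate chain, has chr6:5725389-5725688 on the plus strand.
Pcsk6: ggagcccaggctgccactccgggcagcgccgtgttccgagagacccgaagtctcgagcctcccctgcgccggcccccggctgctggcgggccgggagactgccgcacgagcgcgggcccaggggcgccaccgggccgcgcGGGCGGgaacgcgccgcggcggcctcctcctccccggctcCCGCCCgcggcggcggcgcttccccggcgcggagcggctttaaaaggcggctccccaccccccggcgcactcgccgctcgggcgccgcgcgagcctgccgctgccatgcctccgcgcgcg
Npr3: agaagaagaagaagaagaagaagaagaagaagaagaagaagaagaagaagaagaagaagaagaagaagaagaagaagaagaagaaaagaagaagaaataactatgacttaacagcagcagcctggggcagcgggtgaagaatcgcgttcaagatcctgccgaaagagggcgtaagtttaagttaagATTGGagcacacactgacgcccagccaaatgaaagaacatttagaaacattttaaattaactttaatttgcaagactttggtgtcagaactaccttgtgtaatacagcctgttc
Hs3st3a1: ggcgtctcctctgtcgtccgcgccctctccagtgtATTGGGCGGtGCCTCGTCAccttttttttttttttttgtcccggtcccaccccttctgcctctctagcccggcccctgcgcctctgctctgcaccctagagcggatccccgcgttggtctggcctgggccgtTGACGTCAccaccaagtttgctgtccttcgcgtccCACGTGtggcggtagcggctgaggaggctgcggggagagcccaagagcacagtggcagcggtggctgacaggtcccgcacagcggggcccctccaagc
Dync1i1: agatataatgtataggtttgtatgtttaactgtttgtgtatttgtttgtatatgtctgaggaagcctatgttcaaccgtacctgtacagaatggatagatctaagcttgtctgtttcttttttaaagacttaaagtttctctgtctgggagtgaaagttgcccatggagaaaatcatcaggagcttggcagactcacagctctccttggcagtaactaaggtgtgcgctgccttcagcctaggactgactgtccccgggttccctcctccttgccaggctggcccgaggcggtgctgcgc
The next 2 windows lie under members that were among the most strongly marked in WT cells. Myh9, the heavy chain of non-muscle myosin, has chr15:77842126-77842425 on the minus strand, and Lmna, the gene of lamins A and C, has chr3:88503303-88503602 on the minus strand. The last 2 lie under members that also carried a listed H3K4me3 peak. Igf2bp3, an RNA-binding protein of fetal tissues, has chr6:49214905-49215204 and Tmem141, a transmembrane protein, has chr2:25621953-25622252, both on the minus strand.
Myh9: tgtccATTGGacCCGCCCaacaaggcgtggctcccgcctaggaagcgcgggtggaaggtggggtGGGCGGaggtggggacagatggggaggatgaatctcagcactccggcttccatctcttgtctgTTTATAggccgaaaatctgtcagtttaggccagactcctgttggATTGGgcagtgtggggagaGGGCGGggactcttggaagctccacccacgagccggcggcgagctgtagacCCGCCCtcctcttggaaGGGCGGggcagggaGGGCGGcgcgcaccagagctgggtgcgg
Lmna: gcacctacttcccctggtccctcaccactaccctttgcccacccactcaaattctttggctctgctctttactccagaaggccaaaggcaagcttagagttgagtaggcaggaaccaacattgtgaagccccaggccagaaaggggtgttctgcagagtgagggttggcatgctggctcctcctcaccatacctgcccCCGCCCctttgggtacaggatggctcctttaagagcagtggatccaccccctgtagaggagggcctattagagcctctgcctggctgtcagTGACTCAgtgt
Igf2bp3: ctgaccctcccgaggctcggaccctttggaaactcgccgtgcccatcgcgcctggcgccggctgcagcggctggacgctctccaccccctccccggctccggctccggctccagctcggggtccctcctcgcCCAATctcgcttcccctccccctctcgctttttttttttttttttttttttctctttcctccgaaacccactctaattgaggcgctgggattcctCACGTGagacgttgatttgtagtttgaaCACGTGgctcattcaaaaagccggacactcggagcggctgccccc
Tmem141: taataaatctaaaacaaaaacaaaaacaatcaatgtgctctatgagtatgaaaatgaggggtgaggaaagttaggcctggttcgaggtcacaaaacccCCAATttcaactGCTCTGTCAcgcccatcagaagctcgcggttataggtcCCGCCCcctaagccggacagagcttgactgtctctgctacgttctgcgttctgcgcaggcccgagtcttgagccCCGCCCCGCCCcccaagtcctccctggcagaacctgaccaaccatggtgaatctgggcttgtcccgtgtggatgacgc
These windows are unlike one another in base composition. Pcsk6 has 81.7% G and C and 52 CpG dinucleotides, and its capitals are 2 GC boxes. Npr3, with 39.0% G and C and 6 CpG, opens with a GAA repeat and holds 1 CCAAT box. Hs3st3a1 holds a GC box, a CCAAT box that overlaps it, a cyclic AMP response element, an E-box and an antioxidant element. Dync1i1, at 46.7% G and C, matched none of the 10 motifs. Myh9 holds 6 GC boxes, 2 CCAAT boxes and 1 TATA box, the densest set of matches of the 8. The Lmna window has 1 CpG in its 300 bases. The peaks of Npr3 and Dync1i1 cover their windows only in part.

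The members made up 80.8% of the 2260 listed start-site peaks (95% exact binomial interval 79.1 to 82.4%, for counting error alone and with peaks taken as independent). The background over all listed H3K9ac peaks was 77.2% lower in KO, and since the rule used this contrast nothing is read from the difference. The other 434 listed start-site peaks were higher in KO. The median member had 45.3 mean normalised reads in KO cells, against 93.7 in WT cells. These reads are the deposited log2 group values turned back to a linear scale. The log2 fold change, KO over WT, had a median of -1.07, which is 2.10-fold lower in KO, and it ran from -0.56 to -4.98. It was -1 or below in 1065 members (58.3%) and -2 or below in 148. An FDR under 0.05 was given by the authors to 322 members (17.6%), beside 16.3% of all 6265 listed peaks lower in KO. Of all 8115 listed peaks in both directions, 12.6% were lower at this FDR. Again the rule used the contrast. Only peaks with a p-value under 0.05 are in the authors' deposited table analysed here, and none with a p-value under 0.0001, so peaks outside that range were not analysed here. No value per library is used here, so neither an SD nor an n stands beside a group value, and the depth of the libraries is unknown.

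At the threshold itself the listed values do not run continuously through 0, because only peaks with a p-value under 0.05 are listed. By the difference of the group values, the members closest to 0 were Zfp27, Serpinb8 and Dnm3, to which the authors' deposited table gave log2 fold changes of -0.56, -0.57 and -0.58. Zfp72 was at -0.57 as well (authors' deposited table). Zfp27 had 234 reads in KO and 345 in WT cells. The start-site peaks just above 0 in that table were those of Oplah, Tuba3b and Erich6, each at 0.62. Oplah had 215 reads in KO and 140 in WT cells. No listed start-site peak lay between these values.

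**Figure D1:**
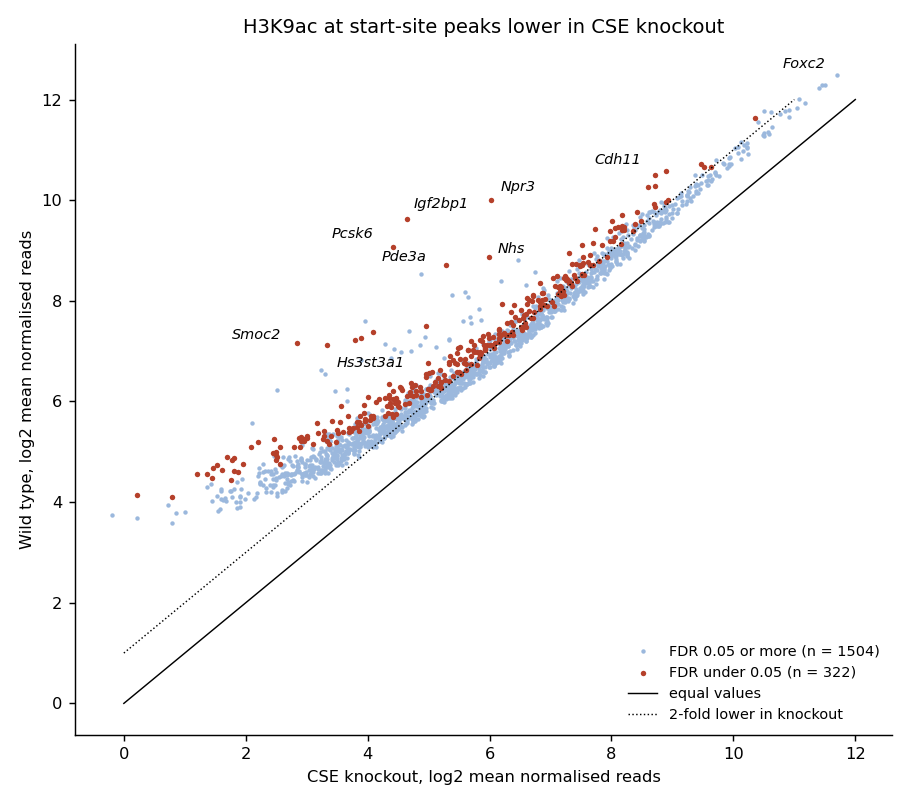
Each point is 1 of the 1826 members, with the authors' log2 mean normalised reads of CSE knockout cells on the x axis and of wild-type cells on the y axis. All points lie above the solid line of equal values by the rule that chose them, 1065 lie on or above the dotted line of a 2-fold difference, and the labelled Igf2bp1, Pcsk6, Npr3 and Pde3a stand far above it.

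Among members with an FDR under 0.05 and a mean log2 signal of at least 6, the 12 of largest fold were Igf2bp1, Pcsk6, Smoc2, Npr3, Hs3st3a1, Pde3a, Dync1i1, Dgkg, Mid1, Nhs, Dclk2 and Cdh11. The authors' deposited table gave the Igf2bp1 peak (chr11:96003974-96007586) 24.9 reads in KO cells and 787 in WT cells, a log2 fold change of -4.98 (FDR 0.0201). Igf2bp1 is an RNA-binding protein known from fetal tissues that binds the message of the growth factor Igf2. Pcsk6, whose peak spans its CpG-rich window, had 21.3 reads in KO and 537 in WT cells in the authors' deposited table (log2 fold change -4.66, FDR 0.00693). Both were strong peaks in WT cells and weak ones in KO cells.

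For Smoc2, a matricellular calcium-binding protein, the values were 7.16 reads in KO and 143 in WT cells (log2 fold change -4.32, FDR 0.0327, authors' deposited table). Npr3, which removes natriuretic peptides from the circulation, had 65.3 reads in KO and 1031 in WT cells, with a log2 fold change of -3.97 (FDR 0.00673, authors' deposited table). Hs3st3a1, an enzyme that modifies heparan sulfate chains, had 10.1 reads in KO and 139 in WT cells (log2 fold change -3.77, FDR 0.0255, authors' deposited table). The mesenchymal cadherin gene Cdh11 stood out for its strength, at 422 reads in KO and 1448 in WT cells (log2 fold change -1.78, FDR 0.0075, authors' deposited table), and kept the most KO signal of the 12.

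Of the others, 2 encode enzymes of second messengers, Pde3a, which breaks down cyclic AMP, and Dgkg, a diacylglycerol kinase. In the authors' deposited table Pde3a had 39.1 reads in KO and 422 in WT cells, and Dgkg 14.8 in KO and 153 in WT cells (log2 fold changes -3.43 and -3.37, FDR 0.0299 and 0.0183). Dync1i1, a dynein subunit, had 13.9 reads in KO and 150 in WT cells, and Mid1, a ubiquitin ligase on microtubules, 16.9 in KO and 168 in WT cells (log2 fold changes -3.42 and -3.31 in the authors' deposited table). Nhs, a regulator of actin and cell shape, had 63.6 reads in KO and 468 in WT cells, and the doublecortin-like kinase Dclk2 had 30.9 in KO and 180 in WT cells (log2 fold changes -2.89 and -2.54, authors' deposited table).

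The 10 members with the highest WT value were Foxc2, Arhgef17, Myh9, Lmna, Efnb2, Phlda3, Actn1, Kif11, Fat1 and Zyx, and none of these peaks had an FDR under 0.05. Foxc2, a forkhead transcription factor of vascular development, had 3327 reads in KO and 5713 in WT cells (log2 fold change -0.78, FDR 0.282, authors' deposited table). For Myh9 the values were 2916 reads in KO and 4973 in WT cells (log2 fold change -0.77), and for Lmna 2721 in KO and 4804 in WT cells (log2 fold change -0.82), both from the authors' deposited table. The Lmna peak was the widest member, at 19001 bases. Several of the others act in adhesion and the cytoskeleton: Actn1 encodes an alpha-actinin, Zyx the focal adhesion protein zyxin and Fat1 an atypical cadherin. Zyx had 1574 reads in KO and 3444 in WT cells (log2 fold change -1.13, FDR 0.0788), and Kif11, a mitotic kinesin, 1448 in KO and 3492 in WT cells (log2 fold change -1.27, FDR 0.0793), in the authors' deposited table.

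Across the list the fold difference was larger where the WT signal was weaker. When members were put into 4 groups of about equal size by their WT value, the weakest group had medians of 10.1 reads in KO and 30.7 in WT cells and a median log2 fold change of -1.58. The strongest group had medians of 276 reads in KO and 523 in WT cells and a median log2 fold change of -0.90. Of the 148 members with a log2 fold change of -2 or below, 104 were in the weakest group. A weak peak needs a larger difference to enter a list limited by p, so the large folds of weak peaks are not set against the smaller folds of strong ones. Only 30 of the 148 had a mean log2 signal of at least 6, and 11 of those 30 had an FDR under 0.05. In 164 members the KO value was under 8 reads, down to 0.877 reads.

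Members were wide where they were strong. Their median width was 1040.5 bases, beside 952 for start-site peaks higher in KO, 683 for lower peaks of other annotation and 549 for higher peaks of other annotation. From the weakest to the strongest of these 4 groups the median width was 416, 801, 1372 and 2472 bases. The peak covered the annotated start site in 1115 members (61.1%), lay upstream of it in 327 and downstream in 384. Protein-coding genes accounted for 1524 members (83.5%), beside 80.4% of the higher start-site peaks. The remainder included 85 at lincRNA genes, 62 at antisense transcripts and 34 at miRNA genes. Strand is not read by ChIP, so a peak at an antisense transcript may equally belong to its partner.

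The start site of the authors' annotation was often not one of the RefSeq table. A RefSeq promoter window was at hand for the genes of 1282 members, and the peak overlapped a window of its own gene in 537 (41.9%, 95% exact binomial interval 39.2 to 44.6%). For start-site peaks higher in KO it did so in 155 of 283 (54.8%, interval 48.8 to 60.7%). Of the other 745 members, 113 had an annotated start within 1 kb of a RefSeq start of the gene, where a peak can flank the 300-base window. The other 632 had an annotated start over 1 kb from every RefSeq start of the gene in the table. The 745 were weaker and narrower as a group. On a RefSeq window the median member had 122 reads in KO and 263 in WT cells, a width of 1595 bases and a log2 fold change of -0.99. Off the window the median member had 24.9 reads in KO and 55.3 in WT cells, a width of 742 bases and a log2 fold change of -1.17. An FDR under 0.05 was given to 22.3% of the members on a window and to 14.2% of those off it. Peak signal and place thus moved together, and their separate parts in the fold were not tested. At 55 members the windows of more than 1 gene, on opposite strands, lay under 1 peak, so the peak cannot be assigned to any 1 of them.

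**Figure D2:**
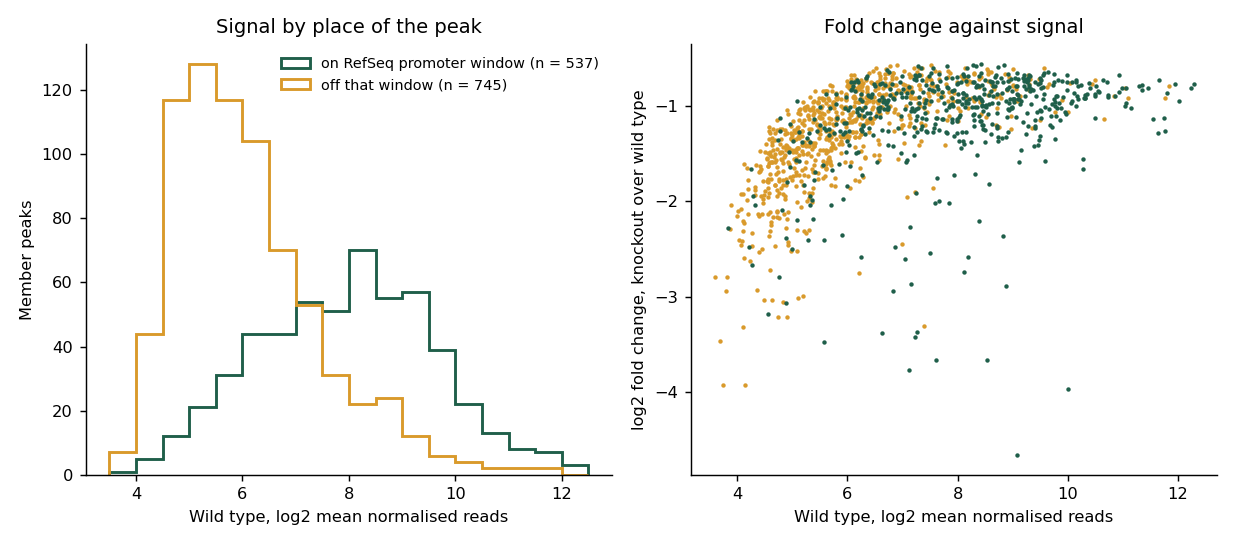
The left panel counts members by the wild-type log2 mean normalised reads, for the 537 peaks on a RefSeq promoter window of their own gene and the 745 off that window. The right panel plots the log2 fold change, knockout over wild type, against the same wild-type value (green: on a window, ochre: off it), and shows that the weakest peaks were mostly off a window and that folds near -1 or smaller prevailed at strong peaks.

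Gene groups are described below with 1 peak per gene, that of the smallest p. Over all 1620 genes the median log2 fold change was -1.08, 311 genes (19.2%) had an FDR under 0.05, and in 502 of the 1114 with a RefSeq window the peak lay on it (45.1%). Genes with a start-site peak higher in KO numbered 406. Lower genes thus outnumbered higher ones at large, 1620 against 406, and 80.8% of listed start-site peaks were lower. A list that leans lower is read beside that share, and small counts cannot be told apart from it. Lower and higher genes are counted by start-site peaks alone. A list is read beside these values, and no list was tested.

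Contractile genes with a listed start-site peak were all on the lower side, 9 of the 30 in the list against 0 higher. Listed start-site genes at large leaned the same way (1620 lower, 406 higher). With all listed H3K9ac peaks counted, 16 contractile genes had a lower peak and 4 a higher one. The 9 had a median log2 fold change of -1.14, and 4 of them had an FDR under 0.05. Ldb3, a Z-disc protein, had 58.9 reads in KO and 147 in WT cells (log2 fold change -1.32, FDR 0.00708, authors' deposited table). Lmod1, a leiomodin that nucleates actin filaments in smooth muscle, had 81.6 reads in KO and 191 in WT cells (FDR 0.0335, authors' deposited table). Lpp, a focal adhesion LIM protein, had 734 reads in KO and 1607 in WT cells (FDR 0.0378, authors' deposited table). Tagln, the classical smooth muscle marker SM22, had 23.9 reads in KO and 51.6 in WT cells (FDR 0.239, authors' deposited table).

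Actin and focal adhesion genes gave 14 lower against 1 higher, the kinase gene Limk1, out of 45 in the list. Their median log2 fold change was -1.06 and 5 had an FDR under 0.05. With all listed H3K9ac peaks counted, 23 genes of the list had a lower peak and 4 a higher one. The formin-like Daam2 had 251 reads in KO and 671 in WT cells (log2 fold change -1.42, FDR 0.00651, authors' deposited table). Ptk2, the focal adhesion kinase, had 201 reads in KO and 419 in WT cells (FDR 0.0267, authors' deposited table). Actg1, cytoplasmic gamma-actin, had 126 reads in KO and 263 in WT cells (FDR 0.0676, authors' deposited table). Of the 13 genes with a window, 3 had this peak on it, and 4 had any member peak on it.

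Among matrix genes, 23 had a lower peak and 3 a higher one when all listed H3K9ac peaks were counted. At start sites they gave 15 lower and 0 higher of 52, with a median log2 fold change of -1 and 3 with an FDR under 0.05. The matricellular growth regulator Ccn2 was the strongest of the 3, with 709 reads in KO and 1675 in WT cells (FDR 0.0139, authors' deposited table). Fbln1, a fibulin of elastic fibres and basement membranes, had 45.6 reads in KO and 135 in WT cells (FDR 0.016, authors' deposited table). Col3a1, the fibrillar collagen of vessel walls, had 71.0 reads in KO and 171 in WT cells (FDR 0.0251, authors' deposited table). Fkbp10, which helps collagen fold, had 31.8 reads in KO and 108 in WT cells (FDR 0.00645, authors' deposited table) and was the only lower member of its list of 25, beside 1 higher, the procollagen enhancer gene Pcolce. Of 37 genes linked to human aneurysm risk 7 were lower and 0 higher at start sites. Col3a1 was the 1 with an FDR under 0.05. Over all their listed H3K9ac peaks, 11 of these genes had a lower peak and 5 a higher one.

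Lists of receptors, signalling and growth genes leaned lower, as did listed start-site genes at large (1620 lower, 406 higher). Vasoactive signalling gave 6 lower and 0 higher of 37: Npr3 and Pde3a as above, then Nox4, a superoxide and hydrogen peroxide producing oxidase, at 176 reads in KO and 350 in WT cells (FDR 0.0539), Rgs4, a brake on G-protein signalling, at 51.3 in KO and 99.7 in WT cells (FDR 0.0707, both from the authors' deposited table), Gna11 and Adra1d. Wnt, Notch and Hippo genes gave 12 lower and 0 higher of 49, with 3 at an FDR under 0.05. These were the transcription factor Tead1, with 36.3 reads in KO and 99 in WT cells, the ligand Wnt5a, with 57.7 in KO and 150 in WT cells, and the kinase Lats2, with 40.2 in KO and 85.0 in WT cells (FDR 0.0258, 0.0351 and 0.0436, authors' deposited table). The Notch target Hey1 had 137 reads in KO and 338 in WT cells (FDR 0.052, authors' deposited table). With all listed H3K9ac peaks counted, 18 Wnt, Notch and Hippo genes had a lower peak and 4 a higher one. Of the TGF-beta and BMP list, 3 of 41 were lower and 0 higher at start sites. Over all listed H3K9ac peaks, 7 genes of that list had a lower peak and 5 a higher one. Smad9, which carries BMP signals, had 171 reads in KO and 428 in WT cells (FDR 0.0103, authors' deposited table).

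Growth factors and their receptors gave 7 lower and 2 higher of 44, with a median log2 fold change of -1.35 and 4 at an FDR under 0.05. Socs2, a feedback inhibitor of growth hormone signalling, had 212 reads in KO and 685 in WT cells, and the smallest p of all members, 0.000101 (authors' deposited table). Igf1 had 343 reads in KO and 873 in WT cells (FDR 0.00655), and Fgf2 13 in KO and 41.9 in WT cells (FDR 0.043), in the authors' deposited table. Igfbp4, which binds insulin-like growth factors, counted on both sides, because it had a peak in each direction. Kinases of the MAP kinase cascade and their phosphatases gave 6 lower and 0 higher of 42, none with an FDR under 0.05, and Dusp4 was the strongest at 1746 reads in KO and 3350 in WT cells (FDR 0.23, authors' deposited table). Ion channel and calcium genes gave 7 lower and 2 higher of 39, among them the calcium channel subunit Cacnb3 with 23.1 reads in KO and 77.7 in WT cells (FDR 0.0113, authors' deposited table).

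Inflammatory and antioxidant lists held few such genes, in both directions. Of 38 inflammatory genes 3 were lower (Tnfrsf1a, Stat2 and Csf1) and 3 higher (Ccl2, Tnfrsf1b and Vcam1). Tnfrsf1a, a receptor for tumour necrosis factor, had 45.3 reads in KO and 96.3 in WT cells (FDR 0.0395, authors' deposited table). Of 36 oxidative stress and glutathione genes 2 were lower (Gpx7 and Gstm2) and 4 higher (Gsta4, Gstm1, Gsto2 and Gstp1). The list of 25 hydrogen sulfide and transsulfuration genes had 1 on each side, the folate enzyme gene Mthfd1 lower and the cystine transporter gene Slc7a11 higher. Cth, the gene that encodes CSE, was not analysed here.

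Genes that write, read or erase chromatin marks were among the members, and are read beside the 1620 lower and 406 higher start-site genes at large. Of 39 enzymes and readers of histone acetylation 5 were lower and 0 higher: the readers Brpf1 and Brd9, the deacetylases Hdac6 and Hdac7, and the acetyltransferase Kat8. None had an FDR under 0.05, and Brpf1 had 17.3 reads in KO and 51.6 in WT cells (FDR 0.0538, authors' deposited table). Of 56 genes of histone and DNA methylation 8 were lower and 0 higher, 4 with an FDR under 0.05. With all listed H3K9ac peaks counted, 18 genes of the methylation list had a lower peak and 5 a higher one. For the acetylation list these counts were 12 and 1. Tet1, which oxidises methylcytosine, had 185 reads in KO and 431 in WT cells, and Trim28, a corepressor that brings H3K9 methylation to chromatin, had 82.1 in KO and 168 in WT cells (FDR 0.0126 and 0.0227, authors' deposited table). The demethylase Kdm4b, which acts on H3K9me3, had 92.4 reads in KO and 172 in WT cells (FDR 0.0329, authors' deposited table). Hmga2, an architectural chromatin protein, had 1361 reads in KO and 2998 in WT cells (FDR 0.062, authors' deposited table).

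Transcription factors of development gave 13 lower and 2 higher (Foxf1 and Mef2c) of 74. Gata2, a zinc-finger factor, had 114 reads in KO and 326 in WT cells (FDR 0.0137, authors' deposited table). Genes named Zfp, mostly zinc-finger transcription factors, gave 25 lower and 3 higher with a median of -0.88, and 16 of the 24 with a window had the peak on it. Zfp422 had 179 reads in KO and 419 in WT cells (FDR 0.0157, authors' deposited table). Canonical histone genes gave 12 lower and 1 higher, H1f1 being the 1 with an FDR under 0.05 at 89.3 reads in KO and 195 in WT cells (FDR 0.0254, authors' deposited table). Histone genes are near-identical copies, and reads from them may have been placed at another copy. Of the genes named Mir 30 were lower and 5 higher. Of the 30, 28 are annotated as miRNA genes and 2, Mir100hg and Mir99ahg, as processed transcripts. An FDR under 0.05 was given to 4 of the lower, among them Mir27a at 195 reads in KO and 437 in WT cells and Mir199a-2 at 792 in KO and 1618 in WT cells (FDR 0.0209 and 0.045, authors' deposited table).

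Several lists of housekeeping genes had few or no member peaks on a RefSeq window. Mitochondrial translation and import genes gave 6 lower and 0 higher of 65, with a median log2 fold change of -1.68, 0 with an FDR under 0.05 and 0 of 6 on a window. The largest was Timm50, an import subunit, with 4.69 reads in KO and 21.0 in WT cells (FDR 0.121, authors' deposited table). For splicing and RNA-binding genes the count was 5 lower and 0 higher, 0 of 5 on a window, and for ER and Golgi transport 3 lower and 0 higher, 0 of 3 on a window. Ribosomal protein genes gave 4 lower and 0 higher of 77, with any member peak on a window in 1 of 3. Among solute carriers 13 of 18 with a window had the peak on it, and they gave 21 lower and 6 higher.

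Markers of cell types were few among the listed start-site peaks. Of 8 smooth muscle markers 2 were lower (Lmod1 and Tagln) and 0 higher. Of 9 fibroblast markers Pdgfra and Gli1 were lower and 0 higher, and of 10 leukocyte markers Aif1 and Cd14 were higher and 0 lower. Listed start-site genes at large gave 1620 lower and 406 higher. With all listed H3K9ac peaks counted, 5 smooth muscle markers had a lower peak and 2 a higher one. For fibroblast markers these counts were 3 and 2, and for leukocyte markers 0 and 2. Lists of 10 endothelial, 7 adipocyte and 7 neural markers had 0 start-site peaks in either direction. The list holds only peaks that differed, so it cannot show which markers lacked H3K9ac in both genotypes, and the part of other cell types in the results was not tested.

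**Figure D3:**
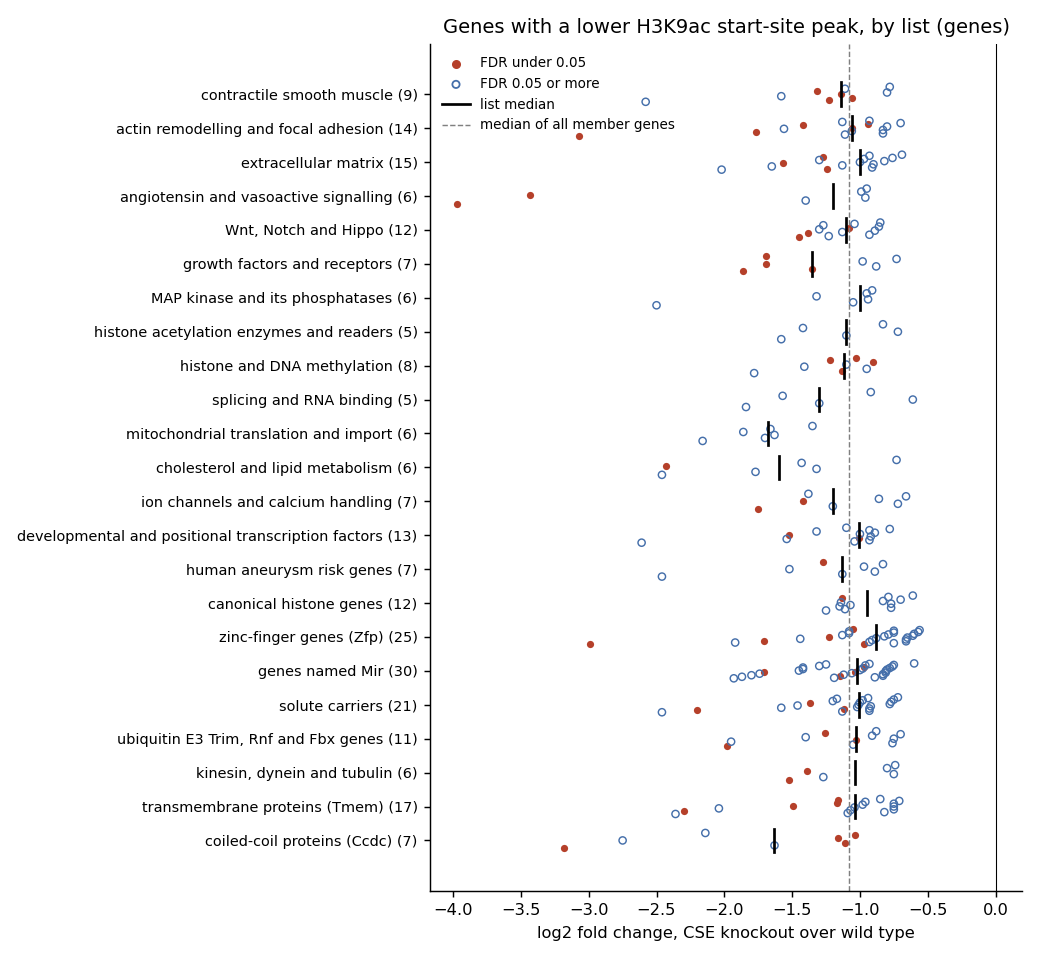
Each point is a gene with a lower start-site peak, placed by its log2 fold change, knockout over wild type, in the lists shown, each with at least 5 such genes (number of genes in brackets). Filled points have an FDR under 0.05 by the authors' deposited table, black bars are list medians and the dashed line is the median of all 1620 member genes at -1.08. Most list medians lie near that line, and Npr3 and Pde3a stand apart on the left of the vasoactive list.

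Most genes had 1 member peak (1460 genes), but 160 had 2 or more. Tns1, which encodes a focal adhesion tensin, had 7 within 52.7 kb, with 43.4 to 1160 reads in KO and 71.5 to 2195 in WT cells. Its log2 fold changes stayed between -0.61 and -0.94 in the authors' deposited table. Kank1, a cortical scaffold of adhesions, had 4 member peaks with log2 fold changes from -1.07 to -3.03. The strong Kank1 peak at 488 reads in KO and 1024 in WT cells was the one at -1.07, and a peak on its RefSeq window had 41.6 reads in KO and 278 in WT cells (log2 fold change -2.74, FDR 0.263, authors' deposited table). For Csnk1g2, a casein kinase, 4 peaks lay within 3.02 kb and ran from -1.43 to -3.93. Peaks of 1 gene share their cells and often their promoter and are not independent.

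Other H3K9ac peaks of member genes were mostly lower as well. The 1603 genes without a higher start-site peak had 723 listed H3K9ac peaks of other annotation, of which 663 (91.7%) were lower in KO, against 77.2% of all listed peaks. For the 389 genes with only higher start-site peaks it was 44 of 126 (34.9%). By place, 225 of 239 peaks between 1 and 3 kb from the start, 272 of 302 in introns and 65 of 79 in intergenic sequence were lower at the member genes. These peaks come from the same libraries and neighbour the members, so they describe the breadth of the difference along a gene and are no separate evidence.

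Of the other marks, H3K4me3 had 469 listed peaks and no values that give a direction. A listed H3K4me3 peak lay on 55 members (3.01%, 95% exact binomial interval 2.28 to 3.90%), which is 11.7% of the listed H3K4me3 peaks. Of the 434 start-site peaks higher in KO, 1 did so (0.230%). The 55 were stronger than the rest, with a median of 260 reads in KO and 537 in WT cells, against 43.4 in KO and 89.3 in WT cells for the other 1771. They were also wider (median 2079 and 1016 bases), and 36 of the 37 with a RefSeq window lay on it, against 501 of 1245. Their median log2 fold change was -1, beside -1.08 for the others, and 12 of them (21.8%) had an FDR under 0.05, beside 17.5%. Signal therefore moved with the overlap, and its part in it was not tested.

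By smallest p, the named members on a listed H3K4me3 peak were Socs2, Npr3, Pcsk6, Igf2bp3, Cand2, Igf2bp1, Pde3a and Tmem141, so 4 of the 12 of largest fold were among them. Igf2bp3, the relative of Igf2bp1 whose window is printed above with its CACGTG pair, had 422 reads in KO and 1243 in WT cells (log2 fold change -1.56, FDR 0.0163, authors' deposited table). Cand2, a regulator of cullin ubiquitin ligases in muscle, had 252 reads in KO and 584 in WT cells (FDR 0.0197, authors' deposited table). Tmem141 had 113 reads in KO and 252 in WT cells (FDR 0.0315, authors' deposited table). Chromosome 6 held 14 of the 55, which is 12.3% of its 114 members.

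H3K9me3 peaks were rarely at the same place. In the listed H3K9me3 peaks 61.0% were higher in KO. Of the 17 member genes with a listed H3K9me3 promoter peak, 13 (76.5%) were higher for that mark, and the lowest H3K9me3 FDR among them was 0.386. These 17 were matched by gene and not by place. The peaks of the 2 marks lay within 2 kb of each other in 7 genes, and at Sgcd they were 607992 bases apart. Only 2 members shared bases with an H3K9me3 peak. Gal3st1, a sulfotransferase of glycolipids, had H3K9ac of 44.3 reads in KO and 125 in WT cells and H3K9me3 of 14.3 in KO and 0.732 in WT cells (authors' deposited table). Ehd3, a protein of endosome membranes, had H3K9ac of 58.1 reads in KO and 197 in WT cells and H3K9me3 of 36.5 in KO and 4.76 in WT cells (authors' deposited table). Pde3a was 1 of the 4 genes with H3K9me3 lower in KO, at 1.57 reads in KO and 14.4 in WT cells, 370 bases from a member of 12.6 reads in KO and 64.0 in WT cells (authors' deposited table). Reads this few carry little precision, and none of these H3K9me3 differences passed an FDR of 0.05.

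Members were spread over all autosomes and X but not evenly by direction. On chromosome 10, 150 of 156 listed start-site peaks were lower in KO (96.2%), and on chromosome 7, 189 of 207 (91.3%). On chromosome 4 it was 23 of 65 (35.4%, 95% exact binomial interval 23.9 to 48.2%), the 1 chromosome with more higher than lower. Chromosomes 11 (60.7%), 19 (61.3%), 18 (62.0%) and 5 (63.8%) were next lowest. X had 57 of 62 lower (91.9%). The differences between chromosomes were not tested.

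**Figure D4:**
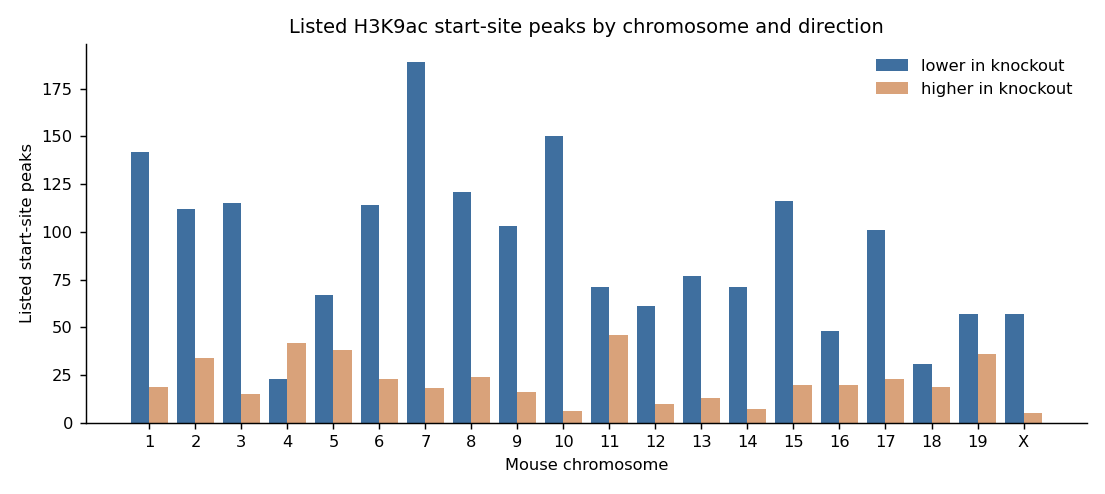
Bars count the listed H3K9ac start-site peaks of each mouse chromosome that were lower (blue) or higher (orange) in CSE knockout than in wild-type cells. Chromosome 10 had 150 lower and 6 higher, and chromosome 4 had 23 lower and 42 higher.

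Many members stood in groups along the chromosome. Another member lay within 100 kb for 869 of them (47.6%), beside 100 of the 434 higher start-site peaks (23.0%), which are fewer and so have fewer neighbours. Peaks of the same gene count as neighbours here, and 160 genes had 2 or more member peaks, so these counts are not of separate genes. The members formed 298 runs at this distance, 34 of them with at least 5 peaks. The longest run held 18 peaks of 12 genes over 418 kb of chromosome 17 (chr17:34833487-35251069), in the gene-dense class III part of the major histocompatibility complex, with Vars, Csnk2b, Bag6 and Prrc2a. Its log2 fold changes ran from -0.65 to -1.95, 1 peak had an FDR under 0.05, and 1 higher start-site peak lay inside it. On chromosome 8 a run of 9 genes held Crtc1, Comp and Cope with no higher start-site peak between them. On chromosome 10, 12 peaks of 7 genes around Csnk1g2 and Ap3d1 included 4 with an FDR under 0.05. A run on chromosome 13 held the histone genes H4c4, H2bc7 and H3c8.

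The promoter windows under the members that lay on one were richer in CpG than those of protein-coding genes at large. These were 537 of the 1826 members, and were stronger and wider than members off a window, as given above. Over the 537 windows the median ratio of observed to expected CpG was 0.621, beside 0.516 for the 155 windows under higher start-site peaks and 0.567 for all 21263 RefSeq windows of protein-coding genes. The ratio was over 0.6 in 54.6% of the windows under members, 38.1% under higher peaks and 47.6% of protein-coding windows. Median GC content was 60.3%, 58.3% and 56.3% in the same order. Active promoters as a class are CpG-rich, and no set of active but equal promoters was at hand, so these values do not set the members apart from active promoters.

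Motif letters were searched on both strands of these windows, and matches of different motifs may overlap. The GC box (GGGCGG), to which Sp factors bind, was in 61.1% of the windows under members, 52.9% of those under higher peaks and 46.2% of protein-coding windows. The CCAAT box (CCAAT) was in 33.3%, 34.2% and 38.2%, and the TATA box (TATAAA) in 11%, 14.8% and 12.6%. The ETS core (CCGGAAG) was in 7.26%, 10.3% and 11.6%, and the E-box (CACGTG) in 10.4%, 7.74% and 7.84%. The cyclic AMP response element (TGACGTCA) was in 2.79%, 0.645% and 2.23%, which is 15 windows under members and 1 under higher peaks. The AP-1 site (TGANTCA) was in 6.70%, 7.10% and 6.99%, the TEAD site (GGAATG) in 17.7%, 16.1% and 13.6%, and the antioxidant element (TGACNNNGC) in 13.4%, 14.2% and 13%. The CArG box, to which serum response factor binds, was in 1.68% of the windows under members, 0 of 155 under higher peaks and 1.52% of protein-coding windows. GC-rich letters are found more often in GC-rich windows, and base composition differed between the sets as given above. A match is a description of the letters and not of binding.

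**Figure D5:**
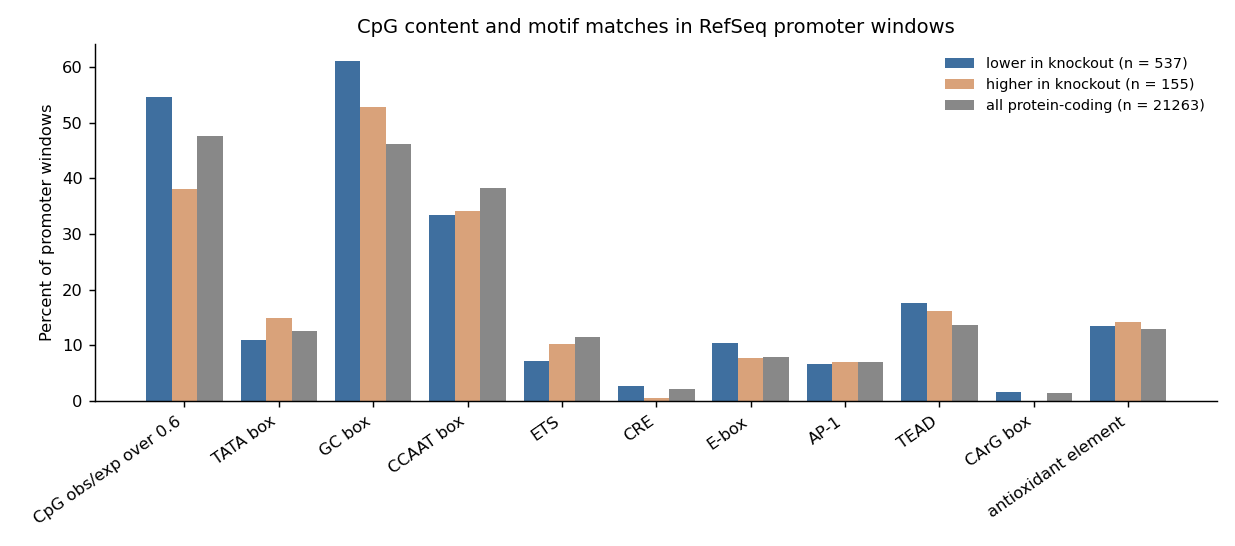
Bars give the percent of RefSeq promoter windows with a CpG ratio over 0.6 or with a match to each motif, for the 537 windows under members, the 155 under start-site peaks higher in knockout and all 21263 of protein-coding genes. The members' tallest bars are the GC box (61.1%) and CpG (54.6%), and bars differ little between the sets for AP-1 and the antioxidant element.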

How the data were processed

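ChIP-seq libraries of H3K9ac, H3K9me3 and H3K4me3 from KO and WT cells were processed by the submitters. The submitters' processing notes list CASAVA 1.4 and mm9, whereas start sites of 225 members equalled RefSeq starts of GRCm38.p6 to the base. Peak positions are printed as deposited. They are read as GRCm38 because the gene positions are, and this was not tested. Aligner, peak caller and normalisation were not given in the sources used here. Per the file headers, the deposited values are log2 mean normalised reads for KO, WT and both together, plus the columns of a comparison (log2 fold change, p-value, FDR). The H3K4me3 table deposited by the authors has positions and annotation only. Width as deposited is 1 base more than end minus start plus 1.

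Values per library are not in use here, so no test was run and the planned description was kept. Log2 values were turned back to reads. Members were all H3K9ac peaks with the annotation within 1 kb of a start and a KO value below WT, with no further filter on signal. Peaks of different marks overlapped with at least 1 shared base. RefSeq windows were matched by gene symbol. Named genes were the 12 of largest fold with an FDR under 0.05 and mean log2 signal of at least 6, the 10 of highest WT value, up to 4 per list by smallest p, the 3 on each side of the threshold, and the 8 of smallest p on each other mark, with predicted genes left out of the fold, signal and mark groups. A few genes outside this rule (Tagln, Actg1, members of small counts, runs and genes with several peaks) were chosen after their values were seen. Members and lists were chosen with earlier results of these data known. A motif set was shortened to 10 after the files were opened and before any match was counted. Alternatives were stricter limits, a narrower start-site distance, other overlaps, neighbour distances and window lengths. Python 3.11.15, numpy 2.4.6, pandas 2.3.3, scipy 1.17.1 and matplotlib 3.10.9 were used, and the functions were checked on simulated data. Some genes and gene lists are not reported here.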

Additional observations from a re-analysis of the deposited data

How the results depend on the processing

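The count of 1826 members was 781 at p under 0.01, 322 at an FDR under 0.05 and 1065 at a log2 fold change of -1 or below. Their share of listed start-site peaks, 80.8%, was 78.3%, 76.7% and 78.6% under these limits in turn, and 76.9% with neighbours of 1 direction within 100 kb merged. The median log2 fold change of -1.07 was -1.24, -1.35 and -1.34 under the same 3 limits, -0.96 at a mean log2 signal of at least 5 and -1.04 with the start within 500 bases. Median width, 1040.5 bases, was 1232.5 at an FDR under 0.05 and 1173 within 500 bases. The 2 members on H3K9me3 became 6 within 1 kb and 17 by gene. The 299 list genes became 670 with all listed peaks of a gene and 64 at an FDR under 0.05. The CpG ratio of 0.621 was 0.590 for the bases before the start. These shifts follow from which peaks or bases each limit keeps. The member count was also 1359 at a mean log2 signal of at least 5, 1521 within 500 bases, 1769 without X and 1620 with 1 peak per gene. Members near another were 681 within 50 kb and 1063 within 200 kb, and H3K4me3 overlap was 55, 58 and 68, all within 1.5 times the main counts.

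No paired analysis was possible because the tables used here hold no value per library, although KO and WT libraries share replicate numbers, and leaving out a replicate was not run for the same reason. Depth is unknown, and peaks under 8 reads are the least precise.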

Other observations

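Both directions met at 17 genes, which had a start-site peak lower in KO and another higher in KO. Igfbp4, a binding protein of insulin-like growth factors, had them side by side. A peak just upstream of its start had 18.3 reads in KO and 66.3 in WT cells (log2 fold change -1.86, FDR 0.0137, authors' deposited table). The peak over its RefSeq window had 260 reads in KO and 111 in WT cells (log2 fold change 1.22, FDR 0.055, authors' deposited table). Aldh1a1, a retinaldehyde dehydrogenase, had a lower peak of 50.9 reads in KO and 82.1 in WT cells (FDR 0.253, authors' deposited table). About its other start, a higher peak on a RefSeq window had 115 reads in KO and 47.5 in WT cells (log2 fold change 1.27, FDR 0.012). Next to it, off the window, a further higher peak had 140 reads in KO and 14.5 in WT cells (log2 fold change 3.27, FDR 0.0394, both from the authors' deposited table). Lmo7, a LIM protein of cell junctions, had 244 reads in KO and 605 in WT cells at its RefSeq window, and 80.4 in KO and 35.3 in WT cells at an inner start. Frmd4b, a scaffold protein, had 2 peaks in each direction. These genes were picked after their values were seen, and the difference between peaks of 1 gene was not tested.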
